A study of Mus musculus with 40 samples.

Results

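The genes described here are 9 CC chemokine ligands and 1 receptor of mouse: Ccl2, Ccl3, Ccl4, Ccl5, Ccl6, Ccl7, Ccl8, Ccl9, Ccl12 and Ccr2. They were chosen by gene symbol as ligands that draw monocytes, macrophages and T cells, together with the main chemokine receptor of inflammatory monocytes. All 10 were among the 14318 genes of the expression table. Bulk RNA sequencing had been performed on primary tumors of 2 mouse models of triple-negative breast cancer at 5 w p.i., to compare chitin and immune checkpoint blockade, alone and combined.

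The tumors grew in immunocompetent wild-type BALB/c females. Lactating mothers were inoculated intraductally, after their pups had been weaned, with 4T1 or 66cl4 mammary tumor cells. Both cell lines carried firefly luciferase. Each model had an untreated group, a group given anti-PD-1 (antibody clone RMP1-14), a group given chitin microparticles made from shrimp shells and a group given both, named chitin + anti-PD-1. All agents were injected intraperitoneally. Each of the 8 groups held 5 tumors, apart from untreated 4T1 with 4, which gave 19 4T1 and 20 66cl4 tumors. Each model derives from 1 cell line, so a difference between the models is a difference between tumors of these 2 lines. p-values measure the spread between the tumors of a group. Cells were inoculated in a pair of mammary glands and the labels do not name the mouse. Tumors of a group may therefore share a mouse, and they were treated as independent. In whole tumor RNA, fewer cells of a type and less RNA per cell cannot be told apart.

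Depth ran from 5105898 to 14800352 reads per tumor with a median of 6590274, and the 4 deepest libraries, with 11683395 reads or more, came from chitin-containing groups of both models. Expression is given as the deposited variance stabilized value (VST), a log2-like scale on which 6.05 stands for 0 reads. Differences are differences of mean VST in log2 units, and they understate the fold change of genes with few reads. Within the 4T1 model, tumor 2 of the anti-PD-1 group and tumor 1 of the chitin + anti-PD-1 group stood apart from their groups for several of the genes, so the main 4T1 treatment differences that rest on them are also given without them. Markers of monocytes and macrophages, the cells in which Ccr2 is usually found, were detected in every group, with all 15 listed genes in the table. Their summed normalized counts were 10323 to 55486 per tumor in the 4T1 groups and 54940 to 98717 in the 66cl4 groups. Of the 13 T cell markers, all were in the table, and they summed to 861 to 4872 normalized counts in 4T1 and 488 to 776 in 66cl4 tumors.

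Chemokines are small secreted proteins that bind receptors on leukocytes and direct their migration, and the CC family takes its name from a pair of adjacent cysteines near the start of the mature protein. CCL2, CCL7 and CCL12 bind CCR2 and draw monocytes from the blood into inflamed tissue and tumors. CCL3, CCL4 and CCL5 attract T cells, NK cells and monocytes, and CCL3 and CCL5 act in part through CCR1. CCL6 and CCL9 are ligands made in quantity by myeloid cells of rodents that act through CCR1, and mouse CCL8 acts through CCR8. The receptor CCR2 marks inflammatory monocytes, and its level falls as these cells mature into tissue macrophages.

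The 9 ligands lie on chromosome 11 in 2 clusters (GENCODE M21, GRCm38/mm10). Ccl2, Ccl7, Ccl12 and Ccl8 follow each other on the plus strand within 81.2 kb, from 82035571 to 82116799. Ccl5, Ccl9, Ccl6 and Ccl3 on the minus strand and Ccl4 on the plus strand lie within 139 kb, from 83525778 to 83664683. Ccr2 lies on chromosome 9 from 124101950 to 124113557. The stretch that names the family is printed for 8 of the ligands as 30 coding bases, read in the direction of transcription, with the codons of both adjacent cysteines in capitals.
Ccl2, chr11:82036494.0-82036523.0, plus strand: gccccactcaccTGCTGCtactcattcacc
Ccl7, chr11:82046526.0-82046555.0, plus strand: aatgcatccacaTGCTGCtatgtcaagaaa
Ccl12, chr11:82102622.0-82102651.0, plus strand: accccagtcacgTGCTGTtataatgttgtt
Ccl8, chr11:82116044.0-82116073.0, plus strand: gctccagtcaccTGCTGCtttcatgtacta
Ccl4, chr11:83663470.0-83663499.0, plus strand: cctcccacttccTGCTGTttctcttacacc
Ccl5, chr11:83529230.0-83529259.0, minus strand: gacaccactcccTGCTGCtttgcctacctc
Ccl6, chr11:83589374.0-83589403.0, minus strand: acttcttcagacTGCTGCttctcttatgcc
Ccl9, chr11:83575914.0-83575943.0, minus strand: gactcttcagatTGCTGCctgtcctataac
Each ligand had 1 such pair in its reading frame. It lay in exon 2 of 3 in most of the ligands, and in exon 3 of 4 in Ccl6 and Ccl9, whose coding sequences hold 116 and 122 codons. The codons were TGCTGT in Ccl4 and Ccl12 and TGCTGC in the other sequences shown. Over whole coding sequences, the most alike pairs were Ccl3 and Ccl4 with 66.7% identical bases, Ccl6 and Ccl9 with 64.8% and Ccl8 and Ccl12 with 64.4%, and the least alike of the 36 pairs were Ccl2 and Ccl5 with 38.1%.

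Ccl6 and Ccl9, neighbors on the same strand, were the ligands that differed most between the models, and the 250 bases before their transcription start are shown for that reason (RefSeq, GRCm38.p6), in the direction of transcription.
Ccl6, chr11:83593088-83593337, minus strand: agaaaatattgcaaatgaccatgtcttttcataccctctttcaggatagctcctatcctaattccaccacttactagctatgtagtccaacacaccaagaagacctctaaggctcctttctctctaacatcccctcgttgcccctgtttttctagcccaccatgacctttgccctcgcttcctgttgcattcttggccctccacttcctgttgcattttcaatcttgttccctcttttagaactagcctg
Ccl9, chr11:83578637-83578886, minus strand: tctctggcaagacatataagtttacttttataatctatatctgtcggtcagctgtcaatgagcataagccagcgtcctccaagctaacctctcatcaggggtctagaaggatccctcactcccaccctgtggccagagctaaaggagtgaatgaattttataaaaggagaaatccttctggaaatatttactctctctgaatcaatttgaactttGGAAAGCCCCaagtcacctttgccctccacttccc
The capitals mark the only match found for an NF-kB type motif (GGGNNNNNCC, searched on both strands), which lay on the opposite strand of the Ccl9 promoter and began 35 bases before the start. This motif occurred in 45.8% of 32851 promoters of the same length. An interferon response type motif (GAAANNGAAA, both strands) occurred in 2.98% of them. Neither motif was matched in the promoters of Ccl3, Ccl6, Ccl8, Ccl12 and Ccr2, and the promoters of Ccl2, Ccl4, Ccl5 and Ccl7 were not analysed here. The longest run of bases shared by the Ccl6 and Ccl9 promoters was 13 bases, and the other 14 pairs of promoters shared runs of 7 to 9 bases.

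Levels of different genes were set side by side as normalized counts per kb of exon. Ccl6 was the most abundant ligand in 66cl4 tumors at 4764 ± 765 (SD, n = 20), ahead of Ccl8 at 1715 ± 1168 and Ccl9 at 1019 ± 189. Ccl12 followed with 710 ± 114, Ccl7 with 471 ± 112 and Ccl2 with 437 ± 145. The T cell attracting ligands were the lowest, with 89.3 ± 34.5 for Ccl5, 65.8 ± 19.3 for Ccl3 and 59.3 ± 21.0 for Ccl4, and Ccr2 stood just above them at 125 ± 50.5. In this order, Ccl8 and Ccl9, Ccl7 and Ccl2, and each neighboring pair from Ccr2 down to Ccl4 differed by less than the larger of their SDs.

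In 4T1 tumors the order was different and less sharply drawn. Ccl8 had the highest mean level per kb at 2989 ± 3382 (SD, n = 19), followed by Ccl6 at 955 ± 585. Ccl5 stood at 271 ± 312 and Ccl12 at 266 ± 153, with medians of 126 and 297. The place of Ccl5 came from the anti-PD-1 group, where its mean was 639, since in untreated, chitin-treated and chitin + anti-PD-1-treated tumors its means were 149, 147 and 125 against 325, 227 and 157 for Ccl12. Ccl9 stood at 185 ± 116, Ccl7 at 156 ± 82.1, Ccr2 at 141 ± 86.8, Ccl2 at 123 ± 51.7, Ccl3 at 76.5 ± 57.8 and Ccl4 at 55.8 ± 38.2. Among neighbors in this order, the gap exceeded the larger SD for Ccl6 and Ccl5 and for no other pair.

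As a share of the summed level per kb of the 9 ligands, Ccl6 made up 51.4% ± 7.94 (SD, n = 20) in 66cl4 tumors, with a range of 35.8 to 61.9%, and 25.1% ± 15.3 (n = 19) in 4T1 tumors. Ccl8 made up 18.01% ± 10.8 in 66cl4 and 45.7% ± 20.9 in 4T1 tumors, where single tumors ran from 5.68 to 72.5%. Ccl9 held 10.96% ± 1.73 of the sum in 66cl4 tumors. With the length of the longest coding transcript in place of all exons, Ccl6 held 55.3% and Ccl8 15.8% in 66cl4, against 27.6% and 41.4% in 4T1.

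**Figure D1:**
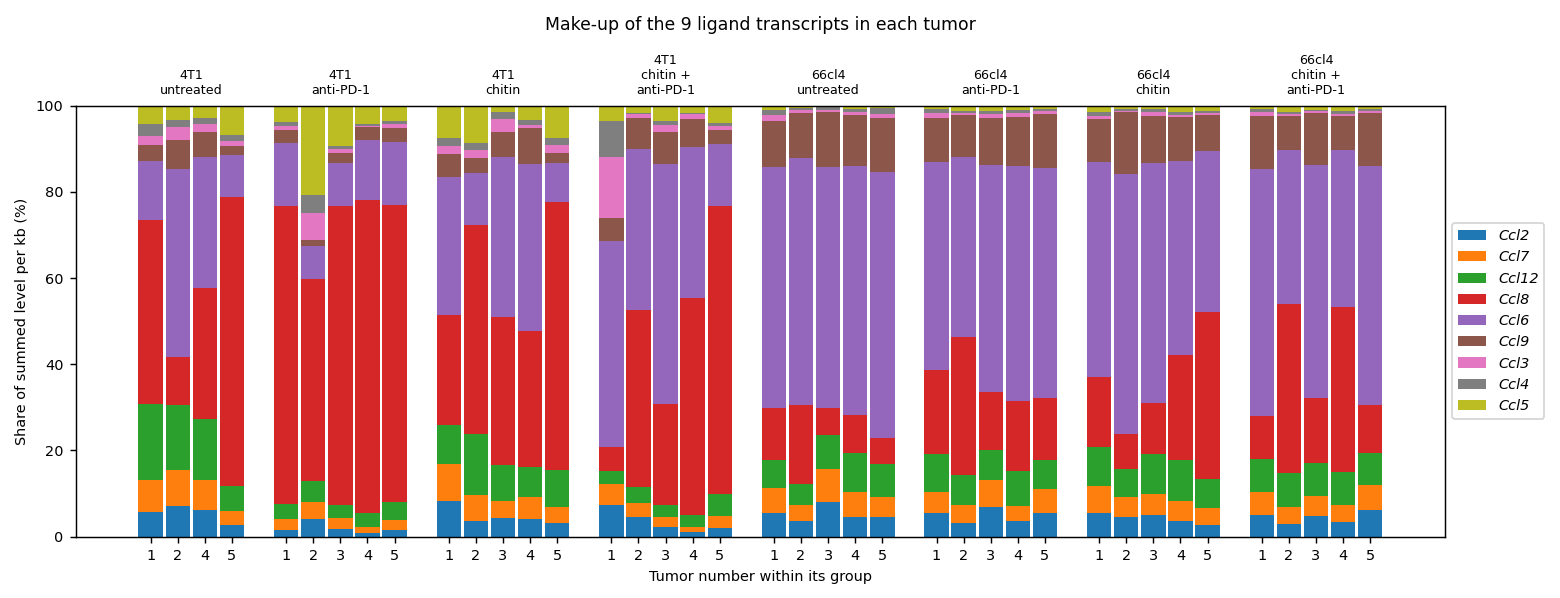
Stacked bars give the share (%) of each of the 9 ligands in their summed level per kb of exon, 1 bar per tumor. Ccl6 took 35.8 to 61.9% in the 20 66cl4 tumors, whereas Ccl8 ranged from 5.68 to 72.5% in the 19 4T1 tumors.

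The first comparison asked how the models differ. Of the 10 genes, 5 were higher in 66cl4 tumors than in 4T1 tumors over all treatments, namely the CCR2 ligands Ccl2, Ccl7 and Ccl12 and the myeloid ligands Ccl6 and Ccl9. Ccl5 was lower in 66cl4 tumors, mainly between the anti-PD-1 groups. Ccl3, Ccl4, Ccl8 and Ccr2 did not pass the test (limma, adjusted p over all genes under 0.05). These 6 of 10 stood against a background of 78.8% of all genes, 38.0% higher and 40.8% lower in 66cl4, so the share of the 10 that differed was not above that of other genes. The median difference of the 10 genes was 0.57 and that of all genes -0.01.

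Among the CCR2 ligands, Ccl2 ran from 7.23 over a median of 8.07 to 8.69 in 4T1 tumors and from 8.75 over 9.22 to 10.08 in 66cl4 tumors. Its normalized counts were 140 ± 58.8 (SD, n = 19) and 497 ± 165 (n = 20). Every 66cl4 tumor was thus above every 4T1 tumor, and the difference was 1.28 ± 0.113 (SE, limma adjusted p = 1.73e-12). Ccl7, with 7.11, 7.85 and 8.67 as its lowest, median and highest VST in 4T1 and 8.40, 8.89 and 9.56 in 66cl4, was higher by 1.11 ± 0.0991 (adjusted p = 2.73e-12). Ccl12, at 6.97, 8.11 and 8.60 in 4T1 and 8.50, 8.97 and 9.22 in 66cl4, was higher by 1.05 ± 0.113 (adjusted p = 2.25e-10). In 19 of 20 66cl4 tumors for Ccl7, and in 18 of 20 for Ccl12, the value was above that of all 4T1 tumors.

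The CCR1 ligands of myeloid cells differed by more than the CCR2 ligands. Ccl6 ran from 8.82 over 10.71 to 11.91 in 4T1 tumors and from 12.73 over 13.08 to 13.51 in 66cl4 tumors, which corresponds to 1714 ± 1050 and 8552 ± 1373 normalized counts. The groups did not overlap, and the difference was 2.52 ± 0.185 (95% CI 2.14 to 2.89, limma adjusted p = 1.61e-14). Ccl9 ran from 7.66 over 9.09 to 10.55 in 4T1 and from 11.32 over 11.60 to 12.23 in 66cl4 tumors, or 564 ± 354 against 3104 ± 574 normalized counts. Its values did not overlap either, and the difference was 2.44 ± 0.165 (95% CI 2.10 to 2.77, limma adjusted p = 1.85e-15). Ccl2, Ccl6 and Ccl9 were the 3 of 10 genes with no overlap of the models, which 17.9% of all genes had, 7.98% with 66cl4 higher.

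Of the T cell attracting ligands, Ccl5 ran from 6.96 over 7.88 to 10.44 in 4T1 tumors and from 7.04 over 7.50 to 8.02 in 66cl4 tumors. The ranges overlapped at the lower end, 9 4T1 tumors were above all 66cl4 tumors, and the difference of 66cl4 minus 4T1 was -0.60 ± 0.160 (limma adjusted p = 0.00106). With anti-PD-1 the means were 9.41 in 4T1 and 7.58 in 66cl4. They were 7.83 and 7.32 untreated, 7.74 and 7.76 with chitin, and 7.74 and 7.67 with both. The difference of Ccl5 thus came mainly from the anti-PD-1 groups. For Ccl3 the difference was -0.01 (95% CI -0.20 to 0.17, adjusted p = 0.903) and for Ccl4 it was 0.08 (95% CI -0.08 to 0.25, adjusted p = 0.362). Both were low, with means of 58.6 and 36.8 normalized counts in 4T1 and 50.4 and 39.2 in 66cl4. Ccl8 differed by -0.09 (95% CI -0.74 to 0.56, adjusted p = 0.799) and Ccr2 by -0.00 (95% CI -0.48 to 0.47, adjusted p = 0.986). Both varied widely among 4T1 tumors, from 7.30 to 12.46 for Ccl8 and from 7.59 to 10.93 for Ccr2.

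**Figure D2:**
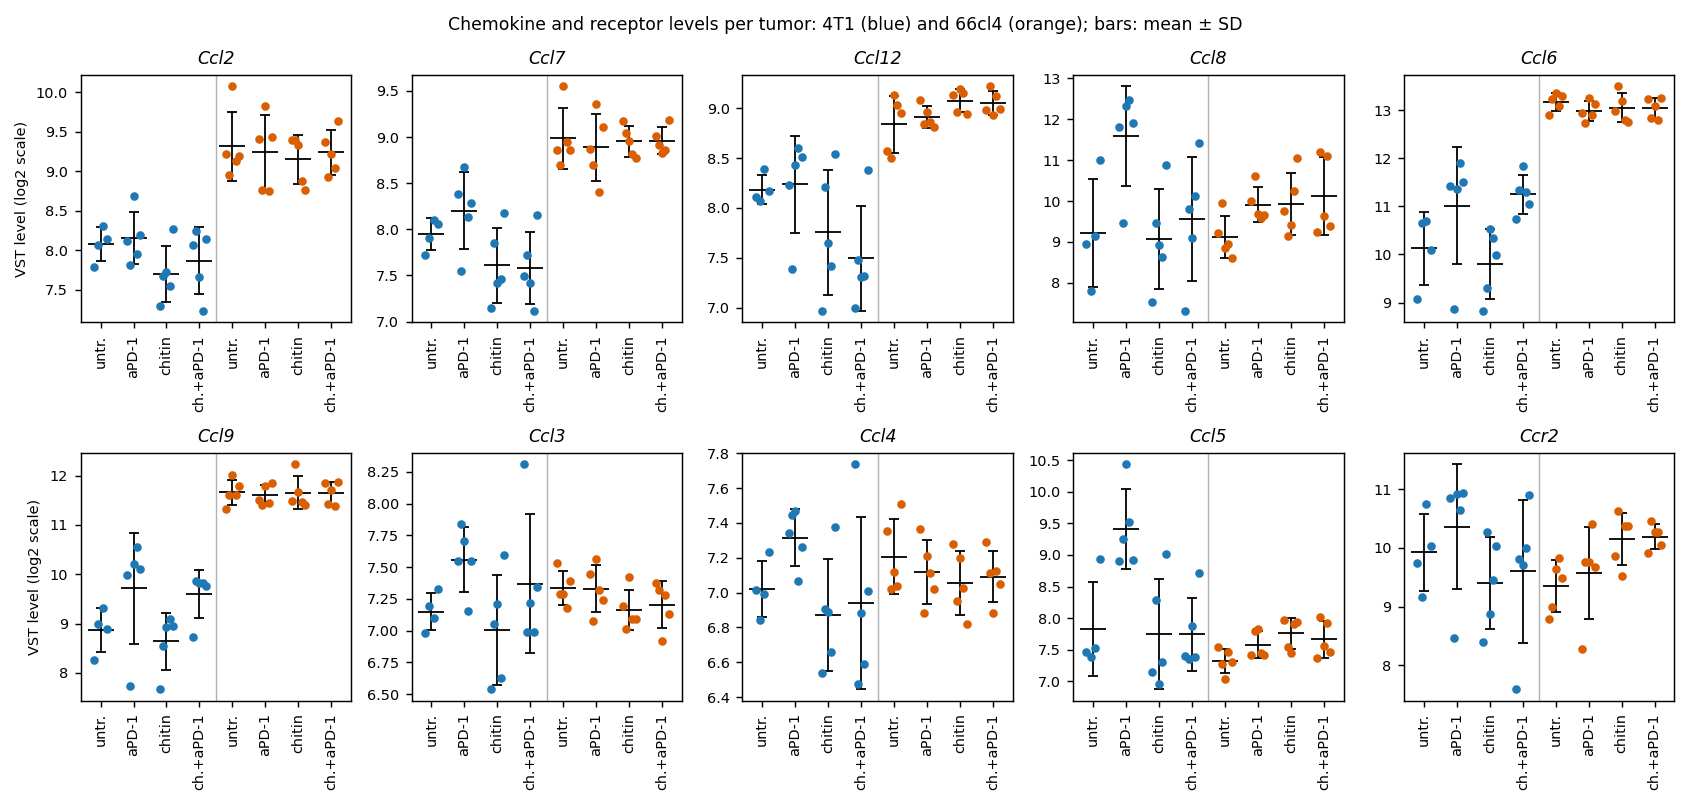
VST (log2-like) of the 10 genes in each tumor, with 1 panel per gene, the 8 groups along the x axis (untr., untreated; aPD-1, anti-PD-1; ch., chitin) and bars at the group mean ± SD; each panel has its own scale. Ccl2, Ccl6 and Ccl9 are higher in all 20 66cl4 tumors than in any of the 19 4T1 tumors, and the spread of Ccl5 and Ccl8 is widest in 4T1.

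In untreated tumors alone, the same 5 ligands were higher in 66cl4. Ccl6 differed by 3.05 ± 0.386 (SE, limma adjusted p = 3.64e-08), Ccl9 by 2.80 ± 0.345 (2.13e-08), Ccl2 by 1.24 ± 0.235 (3.85e-05), Ccl7 by 1.04 ± 0.207 (7.28e-05) and Ccl12 by 0.65 ± 0.235 (0.0185). The background was 55.8% of all genes. For Ccl5 the untreated difference was -0.50 ± 0.335 (limma adjusted p = 0.203) and for Ccr2 -0.57 ± 0.491 (adjusted p = 0.328), and neither passed the test. Without untreated 4T1 tumor 5 the value for Ccl5 was -0.13, and without untreated 4T1 tumor 4 that for Ccr2 was -0.30. Ccl3 and Ccl4 both stood at 0.19 and Ccl8 at -0.10.

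**Figure D3:**
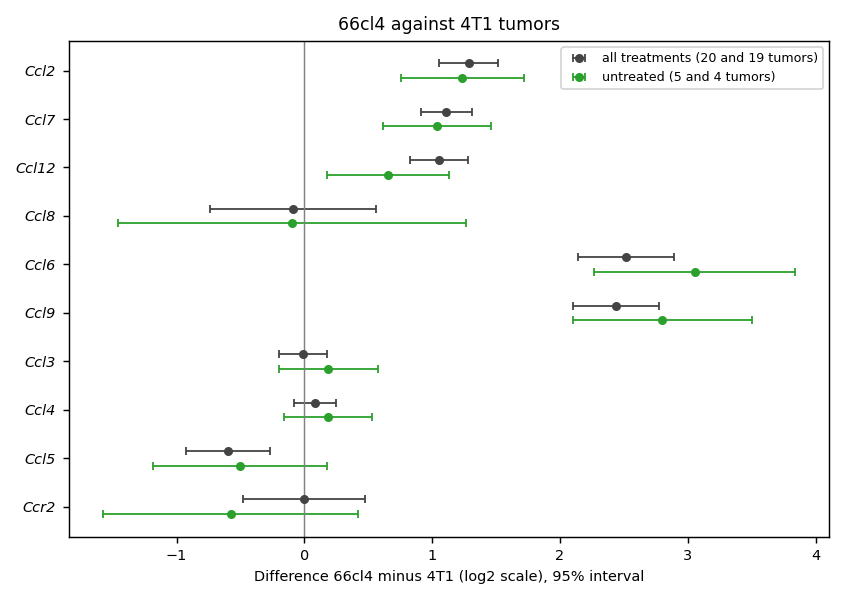
Difference of mean VST, 66cl4 minus 4T1 (log2 units), for the 10 genes over all treatments and in untreated tumors, with 95% confidence intervals. Over all treatments, Ccl6 (2.52) and Ccl9 (2.44) have the largest differences and Ccl5 (-0.60) is the only one of the 10 to be lower past the test. The Ccl5 value comes mainly from the anti-PD-1 groups.

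Marker genes of the cells that make or answer these ligands also differed between the models, and their part in the results was not tested. The counts below stand beside 38.0% of all genes higher and 40.8% lower in 66cl4, and the lists were not tested against these shares. Of 15 monocyte and macrophage markers, 12 were higher and 2 lower in 66cl4 tumors, with a median of 0.82. Mrc1 (2.70), Lyz2 (2.03) and Itgam (1.84) were higher, while Cx3cr1 (-1.68) was lower. Of 13 T cell markers, 10 were lower and none higher (median -0.50), with Thy1 at -1.83, Cd8a at -1.46, Cd8b1 at -1.0045 and Cd3g at -0.84. Of 11 neutrophil markers, 10 were lower (median -0.79), among them S100a9 (-1.74), S100a8 (-1.57), Ngp (-1.54) and Ltf (-1.53).

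Other CC genes did not share the direction of the CCR2 and CCR1 ligands as a group. Of 5 further CC ligands in the table, Ccl24, an eosinophil attractant, was higher in 66cl4 (1.16 ± 0.0994, limma adjusted p = 9.04e-13). Ccl11 (-1.09), Ccl17 (-0.51), Ccl25 (-0.41) and Ccl22 (-0.28) were lower. Of 9 further CC and atypical receptors, Ackr4, a scavenging receptor, was higher (0.68), and Ccr4 (-0.42), Ccrl2 (-0.36), Ackr1 (-0.35) and Ccr3 (-0.26) were lower. Ccr1, the receptor of CCL6 and CCL9, differed by 0.02 (95% CI -0.16 to 0.20) and did not pass the test.

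Of 16 genes that carry the signal of CC receptors inside the cell, 9 were higher and 4 lower in 66cl4 (median 0.27). Pik3r5, a regulator of PI3 kinase gamma, was higher by 1.04, the small GTPase Rac2 by 0.57 and beta-arrestin Arrb2 by 0.56, while the kinase Ptk2b was lower at -1.20. Of 16 NF-kB and inflammatory regulators, which include known activators of chemokine genes, 4 were higher and 9 lower (median -0.19). Il1b (-1.49) and Irf1 (-1.35) were lower and Nfkb2 (0.98) was higher. Of all genes, 38.0% were higher and 40.8% lower in this comparison, and neither list was tested against that share.

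The next comparisons asked what the treatments did within the 4T1 model. Of the 10 genes, Ccl8 and Ccl5 had the largest differences with anti-PD-1 and the largest between chitin + anti-PD-1 and anti-PD-1. No gene of the table passed the adjusted test in any of the 12 treatment comparisons within the models (0% of genes called in each), and none of the 10 genes passed it with limma-voom. Treatment values are therefore given as measured, with the count at an unadjusted p under 0.05 beside the same share of all genes.

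Ccl5 in 4T1 tumors stood at 7.46, 7.39, 7.53 and 8.94 in the untreated tumors and at 8.90, 9.25, 10.44, 9.53 and 8.93 in the anti-PD-1-treated tumors. It stood at 7.16, 8.29, 6.96, 7.31 and 9.01 with chitin and at 7.40, 7.35, 7.88, 7.39 and 8.71 with chitin + anti-PD-1. The anti-PD-1-treated tumors were the high group. They overlapped the untreated group through untreated tumor 5 and the chitin group through chitin tumor 5, and did not overlap the chitin + anti-PD-1 group. The difference from untreated was 1.58 ± 0.438 (SE, 95% CI 0.66 to 2.50, limma adjusted p = 0.517), and that of chitin + anti-PD-1 from anti-PD-1 was -1.66 ± 0.413 (adjusted p = 0.259). Among all genes, 0.684% were lower without overlap in the latter comparison.

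Ccl8 in 4T1 tumors stood at 8.94, 7.79, 9.14 and 10.99 untreated and at 11.82, 9.47, 12.33, 12.46 and 11.90 with anti-PD-1. It stood at 7.52, 9.46, 8.91, 8.62 and 10.87 with chitin and at 7.30, 9.81, 9.10, 10.13 and 11.42 with both. In the anti-PD-1 group, 4 of 5 tumors were above all other 4T1 tumors, and tumor 2 lay among them. The difference from untreated was 2.38 ± 0.812 (95% CI 0.68 to 4.09, limma adjusted p = 0.517), and that of chitin + anti-PD-1 from anti-PD-1 was -2.04 ± 0.766 (adjusted p = 0.440). Both comparisons share the anti-PD-1-treated tumors. Without tumor 2 of the anti-PD-1 group, the difference from untreated was 2.92 for Ccl8 (adjusted p = 0.0732) and 1.62 for Ccl5 (adjusted p = 0.0899), and that of Ccl5 between chitin + anti-PD-1 and anti-PD-1 was -1.70 (adjusted p = 0.0584). Without tumor 1 of the chitin + anti-PD-1 group, this last difference was -1.58 (limma adjusted p = 0.553) for Ccl5 and -1.48 for Ccl8. Tumor 2 was singled out for low values that include Ccl8, so a larger Ccl8 difference without it was fixed in advance. With any 1 tumor left out, the difference of anti-PD-1 from untreated ran from 1.91 to 2.98 for Ccl8 and from 1.32 to 1.95 for Ccl5.

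Across the 10 genes, means were higher with anti-PD-1 than without treatment for 10 of 10, with a median of 0.43 against -0.0005 over all genes. Ccl5 and Ccl8 had an unadjusted p under 0.05, where 8.89% of all genes had one. Compared with anti-PD-1, chitin + anti-PD-1 had lower means for 9 of 10 (median -0.50), and 4 had an unadjusted p under 0.05 (9.13% of all genes), Ccl12 (-0.74, limma adjusted p = 0.453) and Ccl7 (-0.62, adjusted p = 0.410) besides Ccl5 and Ccl8. With tumors weighted by their fit (limma array weights), 4 of the 10 genes passed the test in the first comparison and 6 in the second. Of all 14318 genes, 960 and 2127 then passed it.

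In chitin-containing groups of 4T1, pooled against the other groups, all 10 means were lower, with a median of -0.41 against 0.004 over all genes, although Ccl6, the smallest difference at -0.05, turned higher with array weights. An unadjusted p under 0.05 was found for Ccl5 (-0.87 ± 0.301, limma adjusted p = 0.580), Ccl12 (-0.58 ± 0.211, 0.590), Ccl7 (-0.48 ± 0.159, 0.580) and Ccl2 (-0.33 ± 0.149, 0.666), against 7.28% of all genes. Chitin alone against untreated gave 10 of 10 lower means, from -0.52 to -0.08, with no unadjusted p under 0.05 among the 10 genes (2.77% of all genes). For Ccl5 the means were 7.83 untreated, 7.74 with chitin, 9.41 with anti-PD-1 and 7.74 with both. For Ccl8 they were 9.21, 9.08, 11.60 and 9.55 in the same order. The pooled values of both genes thus came mainly from the high anti-PD-1 group.

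Ccl6 in 4T1 was high with chitin + anti-PD-1 as well as in most anti-PD-1-treated tumors. It stood at 9.07, 10.65, 10.71 and 10.09 untreated, and in anti-PD-1-treated tumors at 11.42, 8.86, 11.37, 11.91 and 11.51. Chitin-treated tumors had 8.82, 9.30, 10.54, 10.35 and 9.99, and those given both agents 10.73, 11.34, 11.84, 11.31 and 11.04. The 5 chitin + anti-PD-1-treated tumors were above all untreated and all chitin-treated tumors. So were the anti-PD-1-treated tumors other than tumor 2, at 11.37 to 11.91. The difference was 1.12 ± 0.513 from untreated (limma adjusted p = 1) and 1.45 ± 0.483 from chitin (adjusted p = 1), where 0.608% and 0.251% of all genes were higher without overlap. Ccl9 differed by 0.96 ± 0.422 between chitin + anti-PD-1 and chitin, and Ccl12 by -0.69 ± 0.307 between chitin + anti-PD-1 and untreated tumors. Without tumor 1 of the chitin + anti-PD-1 group, Ccl6 differed by 1.26 from untreated and 1.58 from chitin, Ccl9 by 1.18 from chitin and Ccl12 by -0.56 from untreated. In the chitin + anti-PD-1 group the mean VST of 11 neutrophil markers was 8.22 to 9.23 per tumor. It was 7.86 to 8.10 in untreated, 8.14 to 8.43 in anti-PD-1-treated and 7.61 to 8.28 in chitin-treated tumors. Tumor 1 of the chitin + anti-PD-1 group had the highest neutrophil mean of its group (9.23) and the lowest Ccl6 (10.73). The part of these cells in the values was not tested. In these comparisons 2 of 10 genes had an unadjusted p under 0.05, against 3.11% and 2.56% of all genes.

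Markers of other cells moved with the anti-PD-1 group of 4T1, and their part in the values above was not tested. The mean VST of 13 T cell markers was 8.25, 7.74, 8.54, 8.21 and 8.31 in anti-PD-1-treated tumors and 7.58, 7.28, 7.49 and 8.09 in untreated tumors. The means of 6 adipocyte markers were 10.50, 6.37, 8.62, 9.67 and 9.34 against 6.77, 6.62, 7.34 and 7.77, and those of the lactating epithelium markers were 10.06, 6.17, 8.27, 9.19 and 9.40 against 6.23, 6.38, 7.44 and 6.51. Tumor 2, low for Ccl6, Ccl8, Ccl9 and Ccr2, was thus also the lowest of its group for each of these lists. In the chitin-containing groups, 9 of 15 macrophage markers (median -0.53) and 11 of 13 T cell markers (median -0.47) had an unadjusted p under 0.05, and none was called. Of all genes, 7.28% had such a p.

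Within the 66cl4 model, the receptor Ccr2 had the largest difference of the 10 genes between the chitin-containing groups and the rest. Ccr2 stood at 8.78, 8.995, 9.64, 9.83 and 9.49 in untreated tumors and at 8.28, 9.77, 9.76, 10.40 and 9.68 with anti-PD-1. It stood at 9.87, 10.63, 9.53, 10.37 and 10.37 with chitin and at 9.92, 10.47, 10.27, 10.27 and 10.05 with chitin + anti-PD-1. The 5 tumors that received both agents were above all untreated tumors, as were 4 of 5 chitin-treated tumors, whereas the anti-PD-1 group overlapped every group. The chitin-containing groups were above the others by 0.71 ± 0.205 (SE, 95% CI 0.28 to 1.14, limma adjusted p = 0.136), and this value lay between 0.55 and 0.81 when any 1 tumor was left out. Chitin + anti-PD-1 differed from untreated by 0.85 ± 0.290 (adjusted p = 0.332), where 1.10% of all genes were higher without overlap, and chitin from untreated by 0.81 (adjusted p = 0.284). Chitin + anti-PD-1 differed from anti-PD-1 by 0.62 (limma adjusted p = 0.588), as 1 of the 10 genes with an unadjusted p under 0.05 against 8.30% of all genes, and by 0.29 without anti-PD-1 tumor 1. Against chitin, none of the 10 had one (3.07% of all genes).

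Ccl5 in 66cl4 tumors stood at 7.54, 7.27, 7.04, 7.46 and 7.31 untreated and at 7.96, 7.54, 7.45, 7.91 and 7.93 with chitin, which overlapped at the lower end of the chitin group. Its difference was 0.44 (limma adjusted p = 0.237), and that of all chitin-containing tumors from the rest was 0.26 ± 0.0973 (adjusted p = 0.211). Ccl12 differed by 0.19 ± 0.0728 (adjusted p = 0.229) and Ccl3 by -0.15 ± 0.0701 (adjusted p = 0.310) in the same pooled comparison. Thus 4 of 10 genes had an unadjusted p under 0.05 there, against 15.6% of all genes, and the median of the 10 was 0.02. Against untreated tumors, Ccl12 differed by 0.24 with chitin (adjusted p = 0.375), and Ccl8 by 1.00 (0.377) and Ccl5 by 0.34 (0.391) with chitin + anti-PD-1, with 11.4% and 10.6% of all genes at an unadjusted p under 0.05. Anti-PD-1 alone gave differences from -0.18 to 0.79, with none of the 10 at an unadjusted p under 0.05 (5.36% of all genes).

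Group means of Ccl6, Ccl9 and Ccl2 differed little between the treatments of 66cl4. Ccl6 had means of 13.18 ± 0.19 untreated, 12.995 ± 0.21 after anti-PD-1, 13.05 ± 0.31 after chitin and 13.04 ± 0.22 after both (SD, n = 5 each). Ccl9 had 11.67 ± 0.25, 11.60 ± 0.20, 11.65 ± 0.34 and 11.64 ± 0.23 in the same order. For Ccl2 the means were 9.32 ± 0.44, 9.24 ± 0.47, 9.16 ± 0.31 and 9.24 ± 0.28. The differences between the means of each of these 3 genes were smaller than the SDs within the groups. Ccl8, the second most abundant ligand per kb in this model, had means of 9.12 ± 0.52, 9.91 ± 0.43, 9.93 ± 0.76 and 10.12 ± 0.96, which differed by more but with a wide spread within the groups. Beside these values, 7 of 15 macrophage markers had an unadjusted p under 0.05 in the chitin-containing groups, with a median of 0.16 and none called. Of all genes, 15.6% had such a p.

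The chitin-containing difference was then compared between the models in a fit of all 8 groups. In this test 14 genes of the table passed, which was 0.0978% of all genes, and none of the 10 was among them. Ccl5 came nearest, with 0.26 in 66cl4 and -0.87 in 4T1, a difference of 1.13 ± 0.321 (95% CI 0.48 to 1.78, limma adjusted p = 0.0928). Ccl12 differed by 0.77 ± 0.225 (adjusted p = 0.102), Ccr2 by 1.35 ± 0.470 with 0.71 in 66cl4 and -0.64 in 4T1 (adjusted p = 0.182), Ccl8 by 1.60 ± 0.640 with 0.51 and -1.09 (adjusted p = 0.263), and Ccl7 by 0.50 ± 0.198 (adjusted p = 0.261). As given above, the 4T1 values of Ccl5 and Ccl8 came mainly from their high level in the anti-PD-1 group, not from chitin alone against untreated. The difference was positive for all 10 genes (median 0.37), apart from Ccl6, which turned negative with median centring, array weights and limma-voom, and Ccl3, which was at 0 with median centring. Of the 10, these 5 had an unadjusted p under 0.05, against 13.2% of all genes. Without tumor 2 of the 4T1 anti-PD-1 group, 677 genes of the table passed the test and 3 of the 10 were among them, namely Ccl12 (0.88, adjusted p = 0.0128), Ccr2 (1.59, 0.0249) and Ccl5 (1.15, 0.0368).

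The same question for anti-PD-1 was added after the values had been seen. No gene of the table passed. Ccl5 differed by -1.32 ± 0.460 between the models, with 0.26 in 66cl4 and 1.58 in 4T1 (limma adjusted p = 0.628), and was the only one of the 10 with an unadjusted p under 0.05, against 7.27% of all genes.

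**Figure D4:**
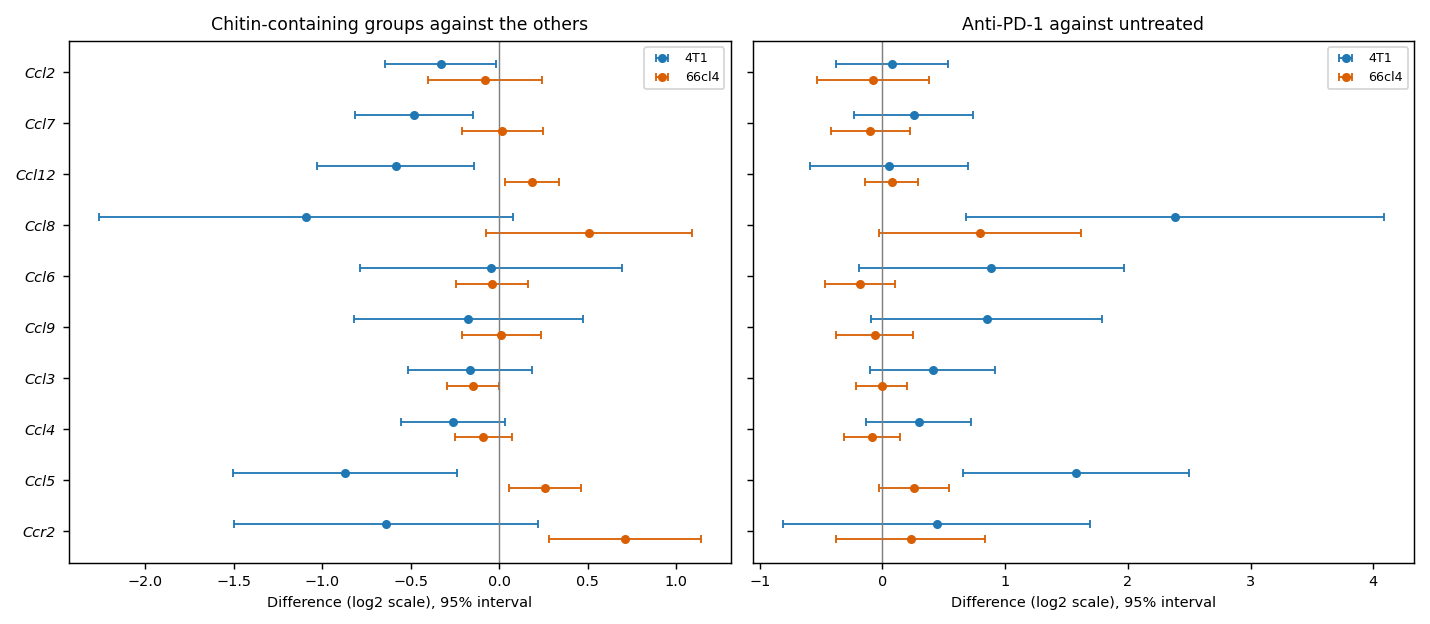
Difference of mean VST (log2 units) of the 10 genes in each model, with chitin-containing against other groups on the left and anti-PD-1 against untreated on the right and 95% confidence intervals. In 4T1 tumors all 10 means lie above 0 for anti-PD-1 and below 0 for the chitin-containing groups, and Ccr2 (0.71) is the highest of the chitin-containing differences in 66cl4.

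Other CC genes gave unadjusted p under 0.05 in a few of these comparisons, and none was called. With anti-PD-1 in 4T1, these were Ccl22 (0.94), the lymph node homing receptor Ccr7 (0.80) and Ccl17 (0.49). In chitin-containing 4T1 tumors Ccr7 (-0.38) was among them. In chitin-containing 66cl4 tumors, Ccl24 (0.30), Ccl22 (0.22), Ccr7 (0.19), Ccl11 (0.14) and Ccl25 (-0.08) were among them. The shares of all genes with such a p were 8.89%, 7.28% and 15.6% in the order of these comparisons.

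Finally, relations among the 10 genes were measured across the tumors of each model, by Pearson's r and Spearman's rho with a permutation test each (90 tests over both models, Benjamini-Hochberg adjusted). In 4T1, 17 of 45 pairs had both coefficients past the threshold and all were positive (median r over the 45 pairs 0.50). In 66cl4, 8 pairs were positive and 5 negative (median r 0.08). With the treatment group means subtracted, the counts were 11 in 4T1 and 8 and 5 in 66cl4. The share of such pairs among other genes was not measured, so these counts cannot be read as particular to the 10 genes.

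The ligands with the highest r were neighbors on chromosome 11. Ccl6 and Ccl9 had r = 0.950 and rho = 0.928 in 4T1 (19 tumors, permutation test, adjusted p = 0.00015) and r = 0.917 and rho = 0.901 in 66cl4 (20 tumors, permutation test, adjusted p = 0.00015). Without the 2 tumors farthest from the median, r was 0.917 and 0.897. Ccl2 and Ccl7 had r = 0.866 and 0.910 in 4T1 and 66cl4 (rho 0.826 and 0.889, r without 2 tumors 0.792 and 0.823), and Ccl3 and Ccl4 had 0.913 and 0.779 (rho 0.853 and 0.823, r without 2 tumors 0.871 and 0.792). Ccl7 and Ccl12, also neighbors, had 0.879 in 4T1 and 0.349 in 66cl4 (rho 0.875 and 0.421, r without 2 tumors 0.904 and 0.267), where the relation did not pass the test. Ccl5 and Ccl8, which lie in different clusters, had r = 0.822 and 0.762 (rho 0.767 and 0.636, r without 2 tumors 0.752 and 0.764).

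Negative relations past the test were found in 66cl4 tumors and not in 4T1 tumors, although the difference of the coefficients was not tested. Ccl6 and Ccl8 had r = -0.755 and rho = -0.720 there (20 tumors, permutation test, adjusted p = 0.00105), and r was -0.745 without the 2 farthest tumors. The others were Ccl5 and Ccl6 (-0.668), Ccl8 and Ccl9 (-0.628), Ccl3 and Ccr2 (-0.595), and Ccl5 and Ccl9 (-0.557). Ccl5 and Ccl9 are also neighbors among the ligands of their cluster, so neighbors did not always vary in the same direction.

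**Figure D5:**
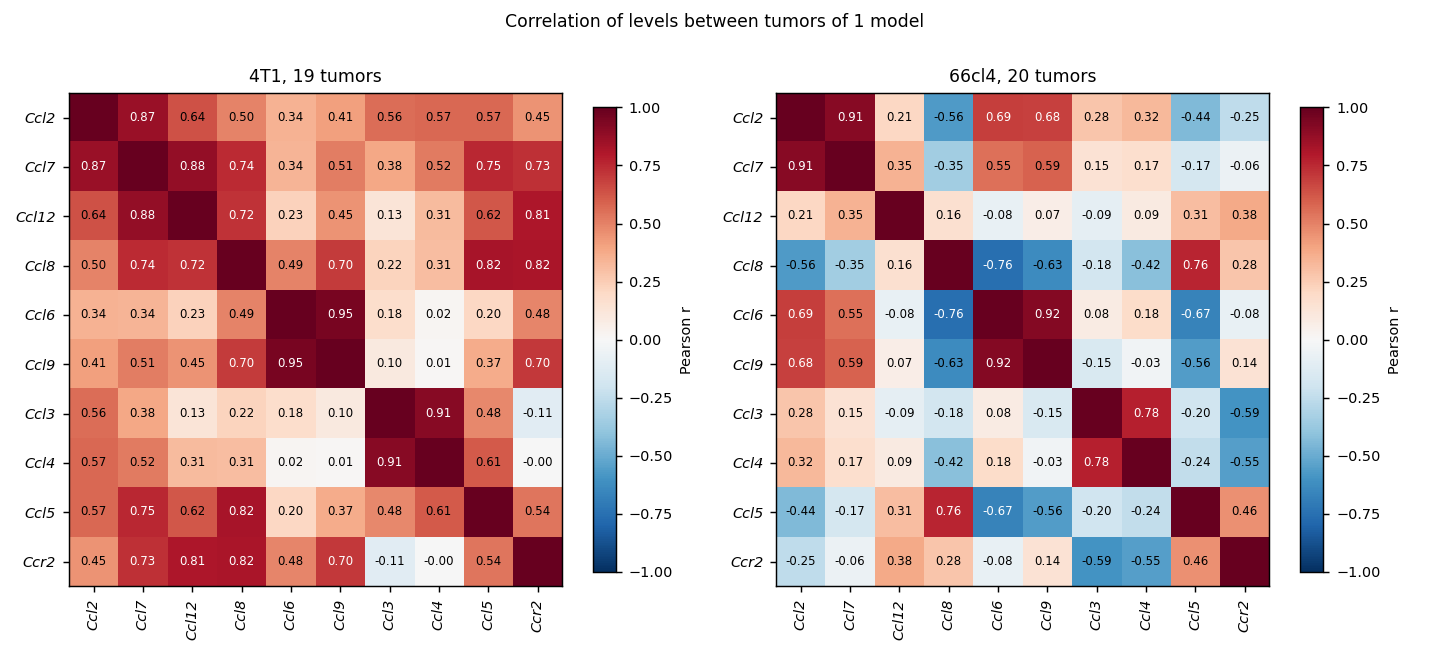
Pearson's r between the 10 genes across the 19 4T1 tumors and the 20 66cl4 tumors, as 1 colored grid per model. Ccl6 with Ccl9 is the highest in both (0.950 and 0.917), and the lowest value is that of Ccl6 with Ccl8 in 66cl4 (-0.755).

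Relations to mean levels of 4 marker lists gave 14 positive pairs of 40 in 4T1 and 4 positive and 1 negative in 66cl4 (80 tests). Ccl5 followed the T cell markers, with r = 0.902 and rho = 0.814 in 4T1 (19 tumors, permutation test, adjusted p = 0.000267) and r = 0.805 and rho = 0.659 in 66cl4 (20 tumors, permutation test, adjusted p = 0.00048). Without the 2 farthest tumors r was 0.873 and 0.691. Ccr2 followed the macrophage markers, with r = 0.898 in 4T1 (rho 0.858, r without 2 tumors 0.816) and 0.772 in 66cl4 (rho 0.651, r without 2 tumors 0.596). Ccl2 and the T cell markers had the negative relation in 66cl4 (r = -0.647, rho = -0.597, permutation test, adjusted p = 0.0094). With group means subtracted, the counts were 9 positive in 4T1 and 2 positive and 2 negative in 66cl4. For these counts too, the share among other genes was not measured.

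The genes whose pattern was most like each of the 10 were ranked by Pearson's r over all 39 tumors after subtraction of the group means. For Ccl2 and Ccl7 (r = 0.870), Ccl3 and Ccl4 (0.907) and Ccl6 and Ccl9 (0.937), the closest gene of the table was the other of the pair. Outside the 10, Ccl5 was closest to Nkg7 (0.850), Cd69 (0.837) and Ifi44l (0.826), of which the first belongs to cytotoxic lymphocytes and the second is an early activation marker of lymphocytes. Ccr2 was closest to Arhgef6 (0.911), Ms4a6c (0.902) and Pirb (0.8995). Ccl3 was closest to Pim1 (0.817), Fas (0.812) and Hcar2 (0.776), and Ccl4 to Col6a4 (0.782), Pim1 and Hcar2. Ccl8 was closest to Fgl2 (0.858), Gprc5c and Igf1, Ccl6 to Sox18 (0.847), Fcna and Hsd17b4, Ccl9 to Rtl8b (0.889), Prxl2b and Rtl8a, Ccl12 to Rbfaos (0.850), AB124611 and Ckb, Ccl7 to Eif4e3 (0.759), Bcl3 and Lilra6, and Ccl2 to Snrpa1 (0.745), Actb (0.697) and Nhp2 (0.684).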

How the data were processed

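RNA of primary tumors had been sequenced as paired reads after TruSeq stranded library preparation, and 39 of the 40 labelled tumors had values. The authors aligned the reads to mm10 with HISAT2, counted them per gene with summarizeOverlaps, left out genes with few reads and applied DESeq2's variance stabilizing step, and these log2-like values were deposited. The annotation used for counting and the tool versions are not given in the sources used here. Untreated 4T1 tumor 3 was left out by the authors for RNA degradation and was not analysed here. No per-tumor column was left unused.

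The lowest value, 6.05, was read as 0 reads. Inverting the transformation gave whole reads for 100.0% of values within 0.001, which were used for depth, normalized counts and limma-voom. Tests used limma 3.58.1 in R 4.3.3 (group means, empirical Bayes with trend) on the deposited log2-like values of 14318 genes, within a model for treatments and over all 8 groups for comparisons of models, with Benjamini-Hochberg adjusted p and a threshold of 0.05. Correlations had 100000 permutations (two-sided, smallest possible p 1e-05), and both r and rho had to pass. Sequences were aligned with Biopython 1.88. Scripts were tested on simulated data. A few items of the lists and 1 sequence are not reported here.

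The 10 genes and all lists were chosen with earlier results of these data known. Each of the 10 was named. Differences were printed for comparisons of the models and otherwise at an unadjusted p under 0.05. Of other lists, at most 4 genes past the threshold were named per list and comparison. The further CC ligands and receptors were an exception, of which more were named for the difference between the models. Those named at an unadjusted p only (Ccl11, Ccl17, Ccl22, Ccl24, Ccl25 and Ccr7 in treatment comparisons) were chosen after their values were seen. Tumor numbers were not used to pair tumors. Same-numbered tumors of different groups had a median correlation of deviations of -0.0175 in 4T1 and 0.0257 in 66cl4. It was over 0.1 in 11 of 27 such pairs in 4T1 and 11 of 30 in 66cl4. Among differently numbered tumors it was over 0.1 in 32 of 108 and 31 of 120 pairs. These values cannot decide whether the numbers pair tumors. Alternatives left out the lowest 25% of genes, the trend or each tumor in turn, and used median centring, quantile normalization, array weights, limma-voom, tumor number as a block and other sets of groups in the fit.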

Additional observations from a re-analysis of the deposited data

Results flagged for a closer look

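Of 80 sets of tumors (10 genes in 8 groups), 8 held a tumor far from the others of its group by Dixon's criterion, where about 4 would be flagged by chance. Of these, 4 were the same tumor, number 2 of the 4T1 anti-PD-1 group, which was low for Ccl6 (8.86, against 11.37 to 11.91 in the other tumors), Ccl8 (9.47, against 11.82 to 12.46), Ccl9 (7.74, against 9.98 to 10.55) and Ccr2 (8.47, against 10.64 to 10.93). Tumor 1 of the 4T1 chitin + anti-PD-1 group was high for Ccl3 (8.31, against 6.99 to 7.35) and low for Ccl9 (8.72, against 9.75 to 9.87). The same tumor had a mean VST of 9.23 over the neutrophil markers, against 8.22 to 8.88 in the rest of its group, and of 8.98 over the fibroblast markers, against 11.35 to 12.74, and the part of these cells in its values was not tested. Ccl5 was high in untreated 4T1 tumor 5 (8.94, against 7.39 to 7.53), and Ccl2 was high in untreated 66cl4 tumor 3 (10.08, against 8.95 to 9.22).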

How the results depend on the processing

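The 6 genes that differed between the models passed the test under every alternative run, and quantile normalization added Ccl4 (0.21, limma adjusted p = 0.0193) for a count of 7. Array weights, which give each tumor a weight by its fit, changed the treatment counts most. Of the 10 genes, 2 passed in chitin-containing 4T1 tumors, 4 for anti-PD-1 and 6 for chitin + anti-PD-1 against anti-PD-1 in 4T1, 1 in chitin-containing 66cl4 tumors, and 5 and 2 for the differences between the models of the chitin and anti-PD-1 comparisons, each against 0 without weights. Array weights also called 297, 960, 2127, 185, 1004 and 331 of the 14318 genes of the table in these comparisons, and the cause was not tested. With 1 tumor left out, the count ranged from 0 to 3 for the chitin difference between models (3 without 4T1 anti-PD-1 tumor 2, and 2 without tumor 5 of the 4T1 chitin or chitin + anti-PD-1 group) and from 0 to 2 for the anti-PD-1 difference (2 without 4T1 anti-PD-1 tumor 2). With treatment group means subtracted, correlation counts went from 17 to 11 between the genes in 4T1, from 14 to 9 with markers in 4T1, and from 4 positive and 1 negative to 2 and 2 with markers in 66cl4. With tumor number as a replicate block, 0 of 16 counts for the 10 genes changed, although the whole table then had 16 genes called for chitin-containing 66cl4 tumors and 104 for the chitin difference between models.

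Of 1403 alternative values of the 51 printed differences, 1341 kept direction and side of the threshold and 40 turned sign, none of a called difference. For 66cl4 minus 4T1 over all treatments, Ccl3 became 0.0116 with median centring, 0.0103 with array weights, 0.11 with quantile normalization and 0.0986 with limma-voom, and ran from -0.042 to 0.0461 with 1 tumor left out. Ccl8 became 0.0612 with limma-voom (-0.23 to 0.0562 with 1 tumor left out), and Ccr2 became 0.0196 with median centring, 0.0229 with quantile normalization and 0.0508 with limma-voom (-0.13 to 0.0769). In untreated tumors, Ccl8 became 0.0872 with array weights and ran from -0.57 to 0.50, the latter without 4T1 tumor 5. Groups of 4 or 5 tumors limit the treatment comparisons, and the low reads of Ccl3 and Ccl4 limit the precision of both.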

Other observations

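Other marker lists were measured for the same tumors, with no further comparison. Between the models, 38.0% of all genes were higher and 40.8% lower in 66cl4, and the lists were not tested against these shares. Between the models (66cl4 against 4T1, all treatments, limma), 2 of 11 NK and cytotoxic lymphocyte markers were higher and 8 lower in 66cl4, with Nkg7 at -0.71, Prf1 at 0.71, Klrk1 at -0.58 and Gzma at -0.57. Of 7 dendritic cell markers 4 were lower, with Itgax at -2.02, Batf3 at -0.45, Zbtb46 at -0.39 and Cd209a at -0.29. None of 3 B cell markers passed the test. Of 8 fibroblast markers, 2 were higher and 4 lower, and the collagen genes Col1a1 (-3.17), Col1a2 (-2.78) and Col3a1 (-1.57) and the matrix gene Postn (-3.23) were the lower ones. All 6 adipocyte, 3 lactating epithelium and 7 mammary epithelium and tumor cell markers in the table and 5 of 6 skeletal muscle markers were lower in 66cl4. In treatment comparisons, none of these lists had a gene past the adjusted test in the anti-PD-1 or chitin-containing comparison of 4T1 or in the chitin-containing comparison of 66cl4. At an unadjusted p under 0.05, there were 5 of 7 dendritic cell markers with anti-PD-1 in 4T1 (median 0.62), against 8.89% of all genes. In chitin-containing 4T1 tumors there were 5 of 7 dendritic cell markers (median -0.42) and 6 of 11 NK and cytotoxic lymphocyte markers (median -0.31), against 7.28% of all genes. In the test of the chitin difference between the models, the T cell gene Cd6 passed (0.78, limma adjusted p = 0.0409).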
